A study of Mus musculus with 5 samples.

Results

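Nuclear oxidative phosphorylation subunits are the proteins of the respiratory chain and ATP synthase that are encoded in the cell nucleus. Their transcripts were followed here in leukocytes of mouse B16-F10 melanomas. The members were the genes of the files whose symbols begin with Nduf and a, b, c, s or v and a digit, with Cox4 to Cox8, with Uqcr or with Atp5, or are Sdha, Sdhb, Sdhc or Sdhd, leaving out Cox6a2 and names that carry "-ps", which marks pseudogenes. This name rule gave 83 of 28692 genes, of which 35 belong to complex I, 4 to complex II, 8 to complex III, 19 to complex IV and 15 to complex V. Atp5s and Atp5sl match by name and are counted with no complex. In all, 80 of the 83 members had at least 20 UMIs, the unique molecular identifiers that count captured transcripts, over the 4 main cell classes. The other 3 were Cox7b2 and Cox8c with 0 UMIs each and Cox8b with 1 UMI.

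The series holds 5 libraries of live CD45+ cells, that is leukocytes, sorted from digested B16-F10 tumors, a transplantable melanoma line. Mice received 500000 tumor cells under the skin, and tumors were taken 11 days later. The protocol text places treatment after resection while the titles place sorting after treatment, so the timing of treatment relative to these tumors is unclear. The treatments were PBS as the control, anti-PD1 (an antibody that blocks an inhibitory T-cell receptor), IL15 superagonist (a strengthened form of a cytokine that sustains CD8 T and NK cells), the combination of both agents, and a fusion protein that joins anti-PD1 and IL15. Each treatment is 1 library of about 16000 loaded cells, made with a 5′ droplet kit. The sources used here give no strain beyond tumor-bearing mice, no age, no doses and no number of mice per library, and all mice carried the same tumor line. With 1 library per treatment, differences between treatments have no replicate check and were not tested. Cell classes and cell states were compared within libraries, with the 5 libraries as replicates, and those comparisons were tested.

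Complex I (NADH dehydrogenase) and complex II (succinate dehydrogenase, also an enzyme of the tricarboxylic acid cycle) pass electrons to ubiquinone. Complex III hands them to cytochrome c, complex IV (cytochrome c oxidase) passes them to oxygen, and complex V (ATP synthase) uses the resulting proton gradient to make ATP. Apart from complex II, each complex also holds subunits encoded in mitochondrial DNA, so its assembly draws on both genomes. In T cells, activation is accompanied by mitochondrial growth and a rise in glycolysis, and memory cells are known for their respiratory capacity.

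The libraries held 6015 to 8747 barcodes with median depths of 4279 to 7851 UMIs. Pairs of libraries shared 61 to 104 barcodes, which is 0.915% to 1.37% of the smaller library. Cells were gated by marker genes into classes. The CD8 T-like class held 884, 1051, 1823, 3045 and 6213 cells for PBS, anti-PD1, IL15 superagonist, then combination, then fusion, an order kept for all lists of 5 values below. The NK-like class held 212 to 1031, the monocyte-like class 196 to 1012 and the macrophage-like class 340 to 1477 cells. Between 13.2% and 29.0% of barcodes fell in no class. The summed T-cell markers were at 2512 to 3750 CPM (UMIs scaled to a common total per class and library) in CD8 T-like and at most 39.1 CPM in the other 3 classes. NK markers were at 1559 to 2265 CPM in NK-like cells and at most 92.3 CPM elsewhere. Macrophage markers were at 8000 to 9109 CPM in macrophage-like cells, 360 to 946 CPM in monocyte-like cells and at most 27.5 CPM in the lymphoid classes. Myeloid-lineage markers, at 12858 to 22688 CPM in the myeloid classes, reached 575 CPM in CD8 T-like and 543 CPM in NK-like cells. Monocyte markers separated least, at 15812 to 19980 CPM in monocyte-like, 9553 to 12948 CPM in macrophage-like and 1012 to 2128 CPM in lymphoid cells. The gates used these markers, so their separation is a check and no finding.

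The 83 members together made up 2.74%, 2.82%, 2.46%, 2.50% and 2.89% of all UMIs in CD8 T-like cells. In NK-like cells the share was 2.19%, 2.39%, 2.26%, 2.26% and 2.43%. In monocyte-like cells it was 2.35%, 2.20%, 2.16%, 2.18% and 2.43%, and in macrophage-like cells 2.61%, 2.54%, 2.60%, 2.55% and 2.76%. The fusion library had the highest share in each of these 4 classes, and NK-like and monocyte-like cells lay below macrophage-like cells in all 5 libraries. Exact Poisson intervals at 95% were narrow, for example 2.16% to 2.22% in the PBS NK-like cells, and cover counting error only. Within CD8 T-like cells of the PBS library, complex I gave 25.1%, complex II 1.42%, complex III 10.3%, complex IV 32.0% and complex V 31.1% of the member UMIs.

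**Figure D1:**
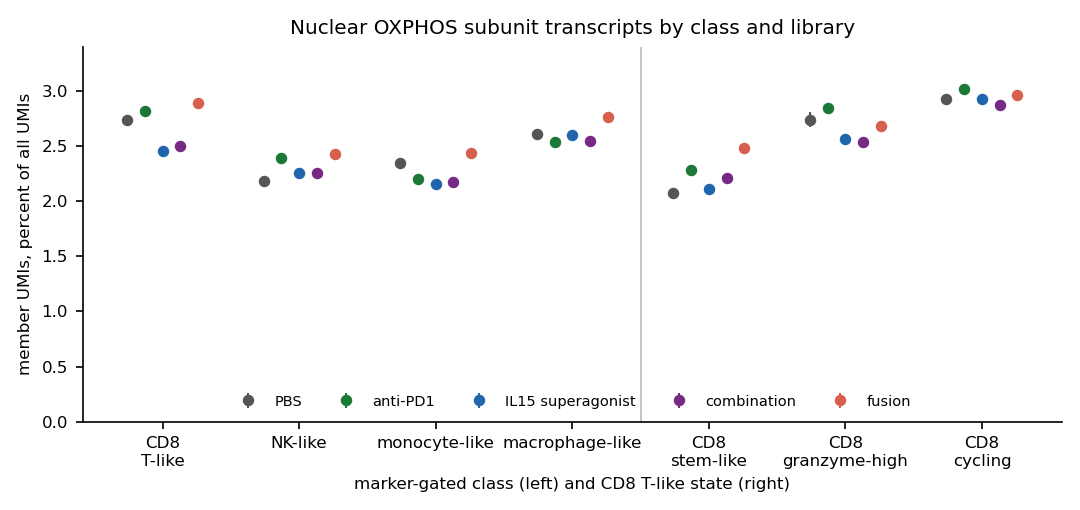
Member UMIs as a percent of all UMIs (vertical axis, from 0) in 4 marker-gated classes and 3 CD8 T-like states (horizontal axis), 1 point per library with its exact 95% Poisson interval, mostly hidden behind the point. Within CD8 T-like cells of each library the stem-like state lies lowest, at 2.08% to 2.48% over the libraries, and the cycling state highest, at 2.87% to 3.01%.

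In 8 smaller gated classes, which enter no test, the lowest share of the summed UMIs was in B-like cells. It was 1.68%, 1.77%, 1.56%, 1.66% and 2.12% on 120, 49, 31, 35 and 3 cells. Conventional dendritic cells lay near macrophage-like cells, at 2.40% to 2.64% in the cDC1-like and 2.49% to 2.73% in the cDC2-like class. Neutrophil-like cells ranged from 1.76% to 2.31%, above the B-like cells of the same library. The order of these 2 classes differed per cell in the anti-PD1, IL15 superagonist and combination libraries. Deep cells weigh more in a sum than in a median, and the part of this was not tested. The median neutrophil-like cell was at 1.78%, 1.48%, 0.83%, 1.27% and 2.27%, and the median B-like cell at 1.60%, 1.66%, 1.62%, 1.66% and 2.09%. The fusion library was lowest in the cDC1-like (2.40%), plasmacytoid DC-like (2.26%) and Treg-like (2.30%) classes, where it holds 26, 10 and 16 cells. CD4 T-like cells, at 2.14%, 2.27%, 1.98%, 2.11% and 2.35% on 31 to 146 cells, lay below CD8 T-like cells of every library.

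Sequences are shown for 5 members because they behaved differently from relatives or from most other members. Atp5g1, Atp5g2 and Atp5g3 encode the same mature c subunit of the ATP synthase ring from separate genes, and their shares differed between lymphoid and myeloid classes. Cox7a2l and Ndufa6 were lower in cycling cells, where most called members were higher. RefSeq lists a promoter window of 300 bases for 69 of the 83 members. Each sequence below is the 250 bases before the RefSeq start on GRCm38.p6, 5′ to 3′ on the minus strand, at 11:96075632-96075881 for Atp5g1, 15:102671048-102671297 for Atp5g2, 2:73911327-73911576 for Atp5g3, 17:83514334-83514583 for Cox7a2l and 15:82354292-82354541 for Ndufa6. Capitals mark CCAAT on either strand or the palindrome of 10 letters searched for the nuclear respiratory factor NRF1.
Atp5g1: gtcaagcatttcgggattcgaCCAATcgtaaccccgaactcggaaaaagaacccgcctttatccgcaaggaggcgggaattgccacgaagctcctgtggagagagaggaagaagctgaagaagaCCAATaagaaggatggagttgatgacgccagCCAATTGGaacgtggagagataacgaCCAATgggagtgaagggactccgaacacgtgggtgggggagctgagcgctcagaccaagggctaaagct
Atp5g2: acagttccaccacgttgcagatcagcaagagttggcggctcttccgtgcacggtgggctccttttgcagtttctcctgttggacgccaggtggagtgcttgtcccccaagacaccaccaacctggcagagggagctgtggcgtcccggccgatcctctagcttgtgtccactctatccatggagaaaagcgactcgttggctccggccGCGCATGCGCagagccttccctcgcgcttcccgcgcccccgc
Atp5g3: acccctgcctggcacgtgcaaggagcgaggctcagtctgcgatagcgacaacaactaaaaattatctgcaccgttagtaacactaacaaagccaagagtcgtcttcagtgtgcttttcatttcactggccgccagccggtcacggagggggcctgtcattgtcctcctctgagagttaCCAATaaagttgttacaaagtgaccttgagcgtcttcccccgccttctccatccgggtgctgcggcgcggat
Cox7a2l: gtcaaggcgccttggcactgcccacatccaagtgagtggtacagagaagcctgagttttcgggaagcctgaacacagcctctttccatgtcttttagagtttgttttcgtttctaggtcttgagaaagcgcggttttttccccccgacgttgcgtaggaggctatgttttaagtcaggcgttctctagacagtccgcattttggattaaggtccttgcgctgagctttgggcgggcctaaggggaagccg
Ndufa6: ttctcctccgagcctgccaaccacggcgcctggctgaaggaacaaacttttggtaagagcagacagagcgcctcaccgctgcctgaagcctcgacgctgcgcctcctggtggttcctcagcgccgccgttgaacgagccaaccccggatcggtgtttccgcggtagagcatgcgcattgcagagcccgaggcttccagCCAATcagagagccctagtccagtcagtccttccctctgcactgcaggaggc
The Atp5g1 window carries CCAAT 5 times, counting both strands, and the Atp5g3 and Ndufa6 windows carry it once. Among these 5, the Atp5g2 sequence alone holds the NRF1 letters, 42 bases before the start, and the Cox7a2l sequence holds none of the motifs searched. In the GENCODE annotation the Cox7a2l gene begins at 83517330 and the Atp5g2 gene at 102672352, both on the minus strand. Both windows thus lie inside the annotated gene, and what they hold or lack applies to the RefSeq start only. Over all 75 member windows, the NRF1 palindrome was in 6.67%, against 0.971% of 32851 RefSeq windows. CCGGAAG, the letters searched for ETS factors, was in 21.3% against 8.86%, the 10-letter motif searched for YY1 in 9.33% against 0.852%, and CCAAT in 42.7% against 37.4%, all on both strands. The ETS letters end in AAG, with which the YY1 motif begins, so matches to those motifs can overlap. A match describes the sequence and shows no binding.

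CD8 T-like cells were compared with NK-like cells, the other lymphocyte class that responds to IL15. Members were higher in CD8 T-like cells across all 5 complexes. Of 80 members, 51 were higher and 0 lower at an adjusted p under 0.05 in edgeR's quasi-likelihood test with Benjamini-Hochberg adjustment over 13804 genes, of which 23.9% were higher and 14.9% lower. The median log2 fold change was 0.33 for members and 0.12 for all genes tested. The counts higher were 24 of 35 for complex I, 2 of 4 for complex II, 6 of 8 for complex III, 9 of 16 for complex IV and 10 of 15 for complex V.

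Ndufc2, an accessory subunit of the membrane arm of complex I, stood at 235, 257, 190, 208 and 266 CPM in CD8 T-like cells and at 138, 171, 103, 114 and 185 CPM in NK-like cells. Ndufc2 was higher in CD8 T-like cells of each library, by 0.77 ± 0.096 (SE) on the log2 scale (adjusted p = 2.4e-06, edgeR, 5 of 5 libraries). Cox5a, a nuclear subunit of complex IV, was at 573, 716, 535, 621 and 951 CPM against 352, 456, 400, 435 and 601 CPM. All 5 libraries again had the CD8 T-like value on top, with the fusion library highest in both classes, and the log2 fold change was 0.64 (adjusted p = 1.1e-05, edgeR). Cox6b2, the isoform of a complex IV subunit known from testis, had the largest log2 fold change of the called members at 1.56 ± 0.42 (SE), but from low levels of 2.19 to 5.77 CPM in CD8 T-like and 0.467 to 1.82 CPM in NK-like cells. Cox4i1, the common form of the complex IV subunit 4, did not pass, with 1207 ± 90.2 (SD, n = 5) CPM in CD8 T-like and 1209 ± 103 CPM in NK-like cells.

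Depth differed between the classes, with median UMIs per cell of 4586 to 9021 in CD8 T-like and 2491 to 3909 in NK-like cells. In cells with 5000 to 10000 UMIs, a window added after the data were seen, 12 members were higher and 0 lower, against 8.55% and 5.92% of all genes in the window, with a median of 0.20 for members and 0.15 for all genes. Inside the window the median depths were 6360 to 7254 UMIs in CD8 T-like and 5667 to 6647 UMIs in NK-like cells, so depth was closer and not equal. Ndufc2 (0.39), Cox5a (0.40) and Ndufb8 (0.50 on the log2 scale), an accessory complex I subunit, still passed there, and Ndufs6 (0.28) and Cox6b2 (0.74) did not. Cycling markers summed to 478 to 1598 CPM in CD8 T-like and 48.9 to 524 CPM in NK-like cells, and their part in the result was not tested. Of the other fixed lists, 18 of 43 assembly factors were higher in CD8 T-like cells and 0 lower, led by Cox17 (1.16), a copper chaperone for complex IV. Subunits and carriers with other names, such as Ndufab1 (0.97), were higher for 4 of 6. Only 2 of 13 mitochondrially encoded subunits were higher, mt-Nd1 (0.46) and mt-Cytb (0.29), and 0 were lower.

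Against macrophage-like cells the balance of directions depended on the scaling. Of 80 members, 10 were higher and 36 lower in CD8 T-like cells, where 40.3% of all genes were higher and 32.1% lower, with medians of -0.16 for members and 0.18 for all genes (edgeR, 13804 genes). With scaling to the total UMIs in place of TMM (trimmed mean of M values) the split was 20 higher and 22 lower, against 45.9% and 29.2% of all genes, and the median for all genes moved to 0.32. With TMM, lower members were 17 of 35 in complex I, 3 of 4 in complex II, 5 of 8 in complex III, 8 of 16 in complex IV and 3 of 15 in complex V. The summed complex V UMIs were higher in CD8 T-like cells of each library, at 8534, 9102, 8132, 8271 and 9896 CPM. Macrophage-like cells had 7766, 7728, 7981, 7846 and 8531 CPM. Complex II was lower in each, at 388, 470, 422, 454 and 542 against 487, 540, 543, 550 and 606 CPM. The other complexes were higher in some libraries and lower in others. Ndufc1, a small complex I subunit, had 213, 149, 126, 116 and 146 CPM in CD8 T-like cells and 310, 236, 279, 226 and 274 CPM in macrophage-like cells. The groups did not overlap, and the log2 fold change was -0.98 (adjusted p = 9.3e-09, edgeR, lower in 5 of 5 libraries). Sdhc, a membrane anchor of complex II, was at 58.0 ± 7.27 (SD, n = 5) against 101 ± 5.24 CPM, a log2 fold change of -0.94 in edgeR's fit.

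Several members were higher in CD8 T-like than in macrophage-like cells. Cox7a2l, which takes part in joining complexes III and IV into a supercomplex, stood at 315, 348, 414, 416 and 312 CPM in CD8 T-like cells and at 163, 160, 159, 175 and 166 CPM in macrophage-like cells. Every CD8 T-like value lay above every macrophage-like value, and the log2 fold change of 0.99 ± 0.097 (SE) was the largest among members higher in CD8 T-like cells (adjusted p = 1.0e-08, edgeR). Uqcrh, the hinge subunit of complex III, was at 1096, 882, 875, 913 and 637 CPM against 538, 456, 450, 491 and 489 CPM. Uqcrh values did not overlap either, and the log2 fold change was 0.70 (adjusted p = 1.0e-06, edgeR). Atp5sl was also among the 3 members with the largest rise, at 0.94.

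Cox4i2 and Cox7a1 were low in lymphoid and higher in myeloid cells, and Ndufa4l2 was found almost only in macrophage-like cells. Cox4i2, the hypoxia-inducible isoform of complex IV subunit 4, had 63, 287, 82, 80 and 38 UMIs in macrophage-like cells, 7, 78, 18, 31 and 25 in monocyte-like cells, 1, 0, 2, 2 and 6 in CD8 T-like cells and 0 in NK-like cells of every library. In CPM these were 8.5, 24.2, 13.4, 11.9 and 15.5 in macrophage-like and 0 to 0.180 in CD8 T-like cells. Cox7a1, an isoform of complex IV subunit 7a known from heart and muscle, was at 16.5, 9.69, 12.6, 6.96 and 6.11 CPM in macrophage-like cells and 1.27 to 2.11 CPM in CD8 T-like cells, with a log2 fold change of -2.75 (adjusted p = 1.1e-09, edgeR). Ndufa4l2, a hypoxia-inducible relative of the complex IV subunit Ndufa4, had 1, 50, 15, 2 and 3 UMIs in macrophage-like cells, 0, 1, 0, 2 and 0 in monocyte-like cells, 0, 0, 0, 2 and 0 in CD8 T-like cells and 0 in every NK-like library. Transcripts of pigment genes, which mark melanoma cells, were at 27.3, 15.2, 14.7, 31.9 and 9.78 CPM in macrophage-like cells and 1.15 to 4.51 CPM in CD8 T-like cells. The part of tumor RNA in these levels was not tested.

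The comparison of CD8 T-like with monocyte-like cells gave 17 members higher and 20 lower, against 39.9% of genes higher and 30% lower, with a median of -0.00 for members and 0.24 for all genes (edgeR). Scaling to the total turned this to 42 higher and 8 lower, against 47.8% and 25.5% of all genes, and moved the median for all genes to 0.46, so the balance of directions depends on the scaling. Leaving out the IL15 superagonist library left 8 higher, given without the share of all genes called in that fit. Atp5g2 was at 875, 1025, 849, 905 and 1142 CPM against 387, 467, 469, 493 and 560 CPM, with no overlap and a log2 fold change of 0.80 ± 0.087 (SE; adjusted p = 4.9e-08, edgeR). Atp5s, at 2.80 ± 0.637 (SD, n = 5) against 0.642 ± 0.16 CPM, had the largest rise at 1.93. Cox6b2 (-1.06) and Cox7a1 (-1.34) were lower in CD8 T-like cells.

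Macrophage-like cells had 26 members higher and 7 lower than monocyte-like cells, against 15.5% and 13.1% of genes, with a median of 0.17 for members and 0.04 for all genes (edgeR). Scaling to the total gave 43 and 5, against 20.1% and 10.6% of all genes. The count higher was 17, 16 and 17 without the anti-PD1, the IL15 superagonist or the combination library, and the count lower was 4, 3 and 4 without the PBS, the anti-PD1 or the combination library. The share of all genes called in those fits is not given beside these counts. Complex I had 12 of 35 higher and 1 lower, complex II 1 of 4 and 0, complex III 2 of 8 and 3, complex IV 4 of 16 and 2, and complex V 6 of 15 and 1. Ndufa12, an accessory complex I subunit, was at 136, 135, 144, 138 and 143 CPM in macrophage-like and 73.1, 73.7, 74.5, 76.2 and 82.1 CPM in monocyte-like cells, and was described for its small spread after its values were seen. Uqcrfs1, the Rieske iron-sulfur protein of complex III, went the other way at 203 ± 23.5 against 268 ± 30.2 CPM (SD, n = 5), with a log2 fold change of -0.48 in edgeR's fit. Here 9 of 13 mitochondrially encoded subunits were also higher, with a median of 0.28.

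**Figure D2:**
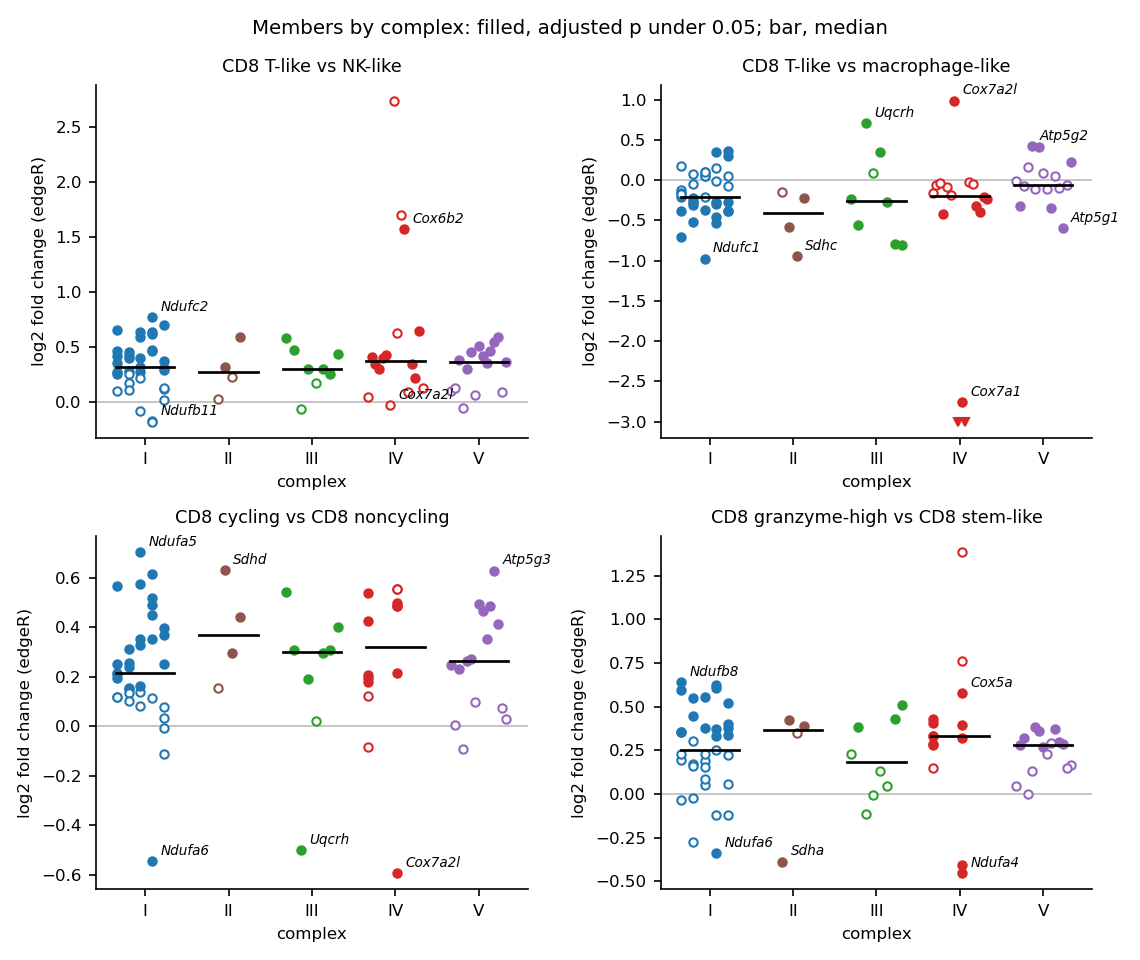
Log2 fold change of each member (vertical axis, edgeR) by complex (horizontal axis) in 4 comparisons, 1 point per member, filled where the adjusted p is under 0.05, with the median of each complex as a bar. The 2 triangles at -3 in the CD8 T-like against macrophage-like panel stand for Cox4i2 and Ndufa4l2, whose fitted values lie below the axis; complex medians lie above 0 in the CD8 T-like against NK-like panel and in both state panels.

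The c subunit genes Atp5g1, Atp5g2 and Atp5g3 were used in different proportions. Of the UMIs of the 3 genes, Atp5g1 gave 14.3% to 18.4% in CD8 T-like, 13.3% to 15.9% in NK-like, 22.0% to 25.4% in monocyte-like and 23.2% to 25.4% in macrophage-like cells. Atp5g2 gave 41.1% to 43.3%, 43.6% to 54.1%, 28.8% to 31.9% and 29.8% to 32.7% in the same order. The lymphoid and myeloid ranges did not overlap for either gene. In CPM, Atp5g1 was lower (-0.59, adjusted p = 7.6e-07) and Atp5g2 higher (0.43, adjusted p = 1.6e-04) in CD8 T-like than in macrophage-like cells, each in 5 of 5 libraries (edgeR). These are shares of UMIs, which a 5′ library counts once per captured molecule with no division by transcript length.

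Among Cox7a1, Cox7a2 and Cox7a2l, Cox7a2l gave 32.2%, 37.4%, 48.4%, 48.1% and 38.2% of the UMIs in CD8 T-like cells, and 21.3% to 24.2% in macrophage-like cells. It gave 50.9% to 61.4% in stem-like, 35.4% to 48.2% in granzyme-high and 25.1% to 34.3% in cycling CD8 T-like cells. Cox7a1 was at most 2.2% in any class. The ranges of these 3 states did not overlap.

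**Figure D3:**
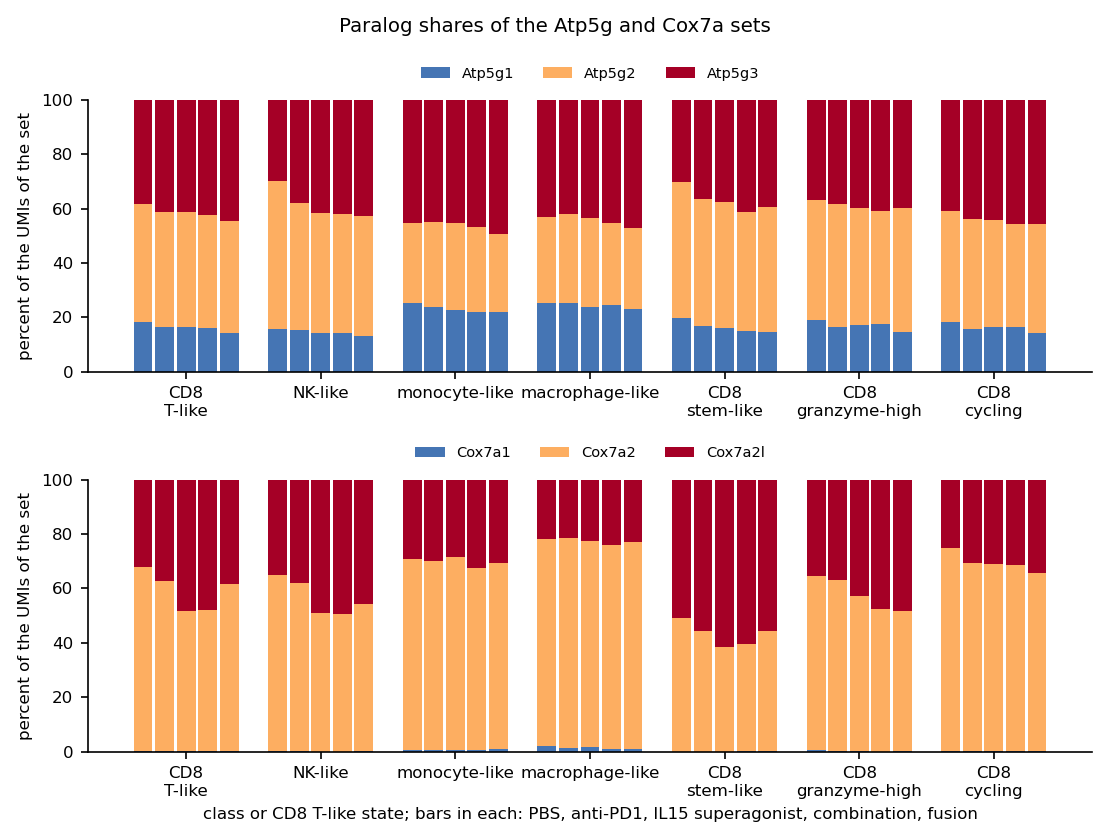
Share of UMIs (vertical axis, percent of the set) that each gene of the Atp5g set (top) and the Cox7a set (bottom) gave in 4 classes and 3 CD8 T-like states (horizontal axis), with 1 stacked bar per library in the order PBS, anti-PD1, IL15 superagonist, combination, fusion. Atp5g1 gave 22.0% to 25.4% in the myeloid classes and 13.3% to 18.4% in the lymphoid classes, and Cox7a2l gave 50.9% to 61.4% of its set in the stem-like state.

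Cycling CD8 T-like cells, gated by at least 2 detected genes of a cell-cycle list, numbered 276, 327, 212, 396 and 3861, so the fusion library held most of them. Members were higher in them than in noncycling CD8 T-like cells of the same library. Of 78 members tested, 51 were higher and 4 lower, against 22.2% and 21.7% of 12623 genes, with medians of 0.25 and -0.04 (edgeR). The count was 23 of 35 for complex I, 3 of 4 for complex II, 6 of 8 for complex III, 9 of 14 for complex IV and 10 of 15 for complex V. Among the core subunits, Cox5a (0.50), Atp5b (0.49), the catalytic subunit of ATP synthase, Sdhb (0.44), the iron-sulfur subunit of complex II, Ndufv1 (0.33), the NADH-binding subunit of complex I, Uqcrc1 (0.29), Atp5a1 (0.25) and Uqcrfs1 (0.19) rose. Sdha (0.16), Ndufs1 (0.08) and Cox4i1 (-0.08) did not pass.

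Ndufa5, a complex I accessory subunit (6:24518666-24528013, minus strand, mm10), was at 128, 121, 148, 121 and 125 CPM in cycling cells and 83.2, 78.4, 77.3, 65.2 and 83.8 CPM in noncycling cells. The groups did not overlap, and the log2 fold change was 0.70 ± 0.068 (SE; adjusted p = 4.6e-06, edgeR). Sdhd, the other membrane anchor of complex II, and Atp5g3 both rose by 0.63. In the other direction, Cox7a2l (17:83501918-83517330, minus strand) was at 263, 294, 284, 291 and 279 CPM in cycling and 362, 399, 461, 467 and 407 CPM in noncycling cells. Cox7a2l was lower in cycling cells of each library, with a log2 fold change of -0.59 (adjusted p = 1.1e-05, edgeR). Ndufa6, a complex I subunit (15:82350140-82354322, minus strand), was at 312, 301, 299, 266 and 260 CPM against 466, 439, 425, 411 and 330 CPM, and fell by 0.55 on the log2 scale. Uqcrh (4:116066965-116075071, minus strand) fell by 0.50. Atp5sl, counted with no complex, was the remaining member that fell, by 0.63.

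Cycling cells were deeper, with median UMIs of 9478 to 14053 against 4329 to 6131 in noncycling cells, and a gate on detected genes depends on depth. In cells with 5000 to 10000 UMIs of both states, 11 members were higher and 4 lower, against 11% and 7.85% of all genes in the window, with a median of 0.07 against -0.03 for all genes. The share of members higher, 14.1%, was thus near that of all genes. Cycling cells stayed somewhat deeper inside the window, at medians of 7552 to 8052 UMIs against 6247 to 6897. Cox7a2l (-0.43), Ndufa6 (-0.46) and Uqcrh (-0.33) remained lower in this window (edgeR), and Ndufa5 (0.45), Cox5a (0.18) and Atp5g3 (0.22) remained higher. Ndufc2 fell short, from 0.62 to 0.18 (adjusted p = 0.10, edgeR). When each cell was thinned to 2000 UMIs after gating, 36 members were higher and 5 lower, against 15.4% and 16.2% of all genes, with a median of 0.21. The window also holds fewer cells than either full state.

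Granzyme-high and stem-like cells are noncycling CD8 T-like cells gated by effector genes or by genes of the memory-like, self-renewing state. The effector genes were Gzmc, Gzmd, Gzme, Gzmf, Gzmg and Havcr2, which is no granzyme gene, and any 2 detected were enough. The 2 states were counted in this order. Granzyme-high cells numbered 25, 53, 107, 192 and 1143, and stem-like cells 86, 194, 735, 906 and 162. Members made up 2.74%, 2.85%, 2.57%, 2.54% and 2.69% of UMIs in granzyme-high cells, against 2.08%, 2.29%, 2.11%, 2.21% and 2.48% in stem-like cells. Of 78 members, 38 were higher in granzyme-high cells and 4 lower, against 12.8% and 14% of 10831 genes, with medians of 0.29 and -0.01 (edgeR). Without the combination library the count higher was 20, and without the IL15 superagonist library the count lower was 2. Both counts stand without the share of all genes called in the same fit.

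Ndufb8 was at 174, 309, 227, 237 and 256 CPM in granzyme-high cells and 101, 166, 126, 162 and 203 CPM in stem-like cells. Each library had more in granzyme-high cells, although the groups overlapped across libraries, and the log2 fold change was 0.64 ± 0.11 (SE; adjusted p = 1.3e-04, edgeR). Ndufs5 (0.62), Ndufc2 (0.61) and Cox5a (0.58) rose by similar amounts. Ndufa4, now counted with complex IV, was at 329, 345, 345, 273 and 291 CPM against 408, 485, 354, 401 and 476 CPM, and fell by 0.45 (adjusted p = 0.0021, edgeR). Cox7a2l (-0.41), Sdha (-0.39), the flavoprotein of complex II, and Ndufa6 (-0.34) were the other members that fell. In cells with 5000 to 10000 UMIs 8 members were higher and 1 lower of 77, against 6.14% and 6.42% of all genes, with a median of 0.14 for members and 0.01 for all genes. Median depths there were 7037 to 8265 UMIs in granzyme-high and 6022 to 6421 in stem-like cells. Ndufb9 (0.49), Cox5a (0.43) and Ndufb8 (0.38) passed, Ndufa4 fell by 0.67, and Cox7a2l (-0.23, adjusted p = 0.21) and Ndufa6 (-0.20, adjusted p = 0.31) no longer passed in edgeR's test.

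**Figure D4:**
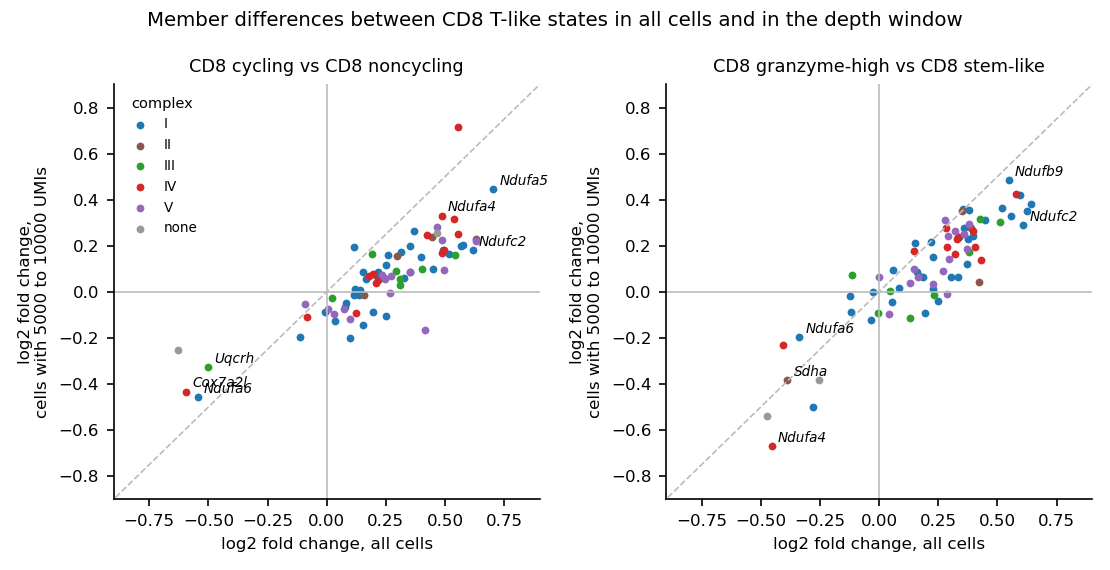
Log2 fold change of each member in cells with 5000 to 10000 UMIs (vertical axis) against that in all cells (horizontal axis) for the 2 CD8 T-like state comparisons, 1 point per member coloured by complex, with a dashed line of equality; members beyond 0.9 on either axis are not drawn. Most points above 0 lie below the line, while Cox7a2l, Ndufa6 and Uqcrh stay below 0 in the cycling panel.

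Mitochondrially encoded subunits were mostly lower in granzyme-high cells. In granzyme-high cells 0 of 13 were higher and 9 lower than in stem-like cells, with a median of -0.31, and mt-Co1, the catalytic subunit of complex IV, had a log2 fold change of -0.43 (adjusted p = 5.0e-04, edgeR). They made up 2.89%, 2.31%, 2.26%, 2.20% and 2.24% of UMIs in granzyme-high and 3.99%, 2.98%, 2.65%, 2.70% and 2.42% in stem-like cells. In cycling cells 4 of 13 were higher and 1 lower, with a median of 0.00. Assembly factors were higher for 15 and lower for 4 of 43 in cycling cells, led by Ndufaf2 (0.96) and Nubpl (0.83), both for complex I, and higher for 9 and lower for 0 in granzyme-high cells, led by Cox17 (1.15). Subunits and carriers with other names rose for 5 of 6 in cycling cells, with Cycs, cytochrome c, at 0.83, and for 4 of 6 in granzyme-high cells. Tricarboxylic acid cycle genes rose for 6 and fell for 0 of 16 in cycling cells, with Fh1, fumarase, at 0.72, and rose for 3 in granzyme-high cells. Of 12 regulators tested, 0 were higher and 2 lower in granzyme-high cells, and 3 were higher and 0 lower in cycling cells. Myc (-2.07) and Tfam (-0.93), the factor that packages and transcribes mitochondrial DNA, fell in granzyme-high cells, and Tfb1m (0.49), Pprc1 and Nrf1 rose in cycling cells.

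Between treatments, a member was called where 1 library lay at least 25% above the other and the exact 95% counting interval of the ratio left out 1. This compares libraries and not conditions. All comparisons with PBS share the 1 PBS library. In CD8 T-like cells, anti-PD1 against PBS gave 15 members higher and 6 lower of 78, where 13.1% of all genes were higher and 18.6% lower. The IL15 superagonist library gave 12 and 20 (all genes 20.2% and 26.5%), the combination library 13 and 18 (17.7% and 26.6%) and the fusion library 26 and 16 (21.4% and 33.1%). Median log2 ratios of members were 0.10, -0.13, -0.08 and 0.12, and those of all genes -0.06, -0.06, -0.09 and -0.13. With the anti-PD1 library as the reference, the IL15 superagonist library gave 2 higher and 16 lower (15% and 16.2% of genes), the combination 1 and 15 (9.99% and 13.8%) and the fusion 11 and 4 (16.1% and 25.8%).

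For members, the PBS library often held the lowest or highest value, which touches these comparisons. In all 4 classes, 19 of 80 members had their lowest CPM in the PBS library, and 10 had their highest there. The fusion library had 21 highest and 0 lowest in all 4 classes, and anti-PD1 had 0 of either. The same counts were not made over all genes, so whether members differ from other genes in this is not known. The 10 highest in PBS, among them Atp5e, Uqcr11, Uqcrq, Cox7c, Cox6c, Ndufa2 and Ndufa6, have a median transcript length of 559.5 bases, and the 19 lowest, among them Sdhb, Ndufv1, Ndufa9, Ndufa10, Uqcrc1, Uqcrc2 and Atp5b, of 1410 bases (GENCODE release 21). Grouping members by transcript length was chosen after the data were seen. In CD8 T-like cells the median log2 ratio of fusion to PBS was -0.20 for the 25 members of at most 666 bases, 0.17 for the 25 of up to 1100 bases and 0.57 for the 28 longer ones. For all genes of the same length groups the medians were -0.24, 0.21 and -0.17.

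The other classes showed the same order for fusion against PBS, at -0.22, 0.29 and 0.59 in NK-like, -0.18, 0.12 and 0.30 in monocyte-like and -0.14, 0.17 and 0.25 in macrophage-like cells. In CD8 T-like cells the anti-PD1 library gave -0.08, 0.12 and 0.21, the IL15 superagonist library -0.31, -0.09 and 0.21 and the combination library -0.28, -0.04 and 0.18. The fusion library against the combination library gave 0.19, 0.25 and 0.28. Across the 78 members, the Spearman correlation of the CD8 T-like log2 ratio with length was 0.31, 0.40, 0.47 and 0.41 against PBS and 0.10 for fusion against combination, a description over genes that share libraries. Over all genes it was negative, at -0.36, -0.24, -0.27 and -0.37 against PBS. Other pairs without PBS also had a positive member correlation in CD8 T-like cells. It was 0.46 for fusion against anti-PD1, 0.26 for combination against IL15 superagonist and 0.26 for IL15 superagonist against anti-PD1. Fusion against anti-PD1 gave 0.30 in NK-like, 0.22 in monocyte-like and 0.13 in macrophage-like cells, and IL15 superagonist against anti-PD1 gave -0.04, 0.09 and -0.07. For fusion against combination the values were 0.16 in NK-like, -0.20 in monocyte-like and 0.08 in macrophage-like cells. Combination against IL15 superagonist gave 0.23, 0.26 and 0.12 in the same order. In macrophage-like cells the comparisons with PBS gave 0.47, 0.53, 0.45 and 0.42, above each of these pairs without PBS. The trend with length was thus not confined to comparisons with PBS in CD8 T-like cells. In macrophage-like cells it was weak or absent in the pairs without PBS. Fragment size and RNA quality of the PBS library are not in the files, and their part was not tested.

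**Figure D5:**
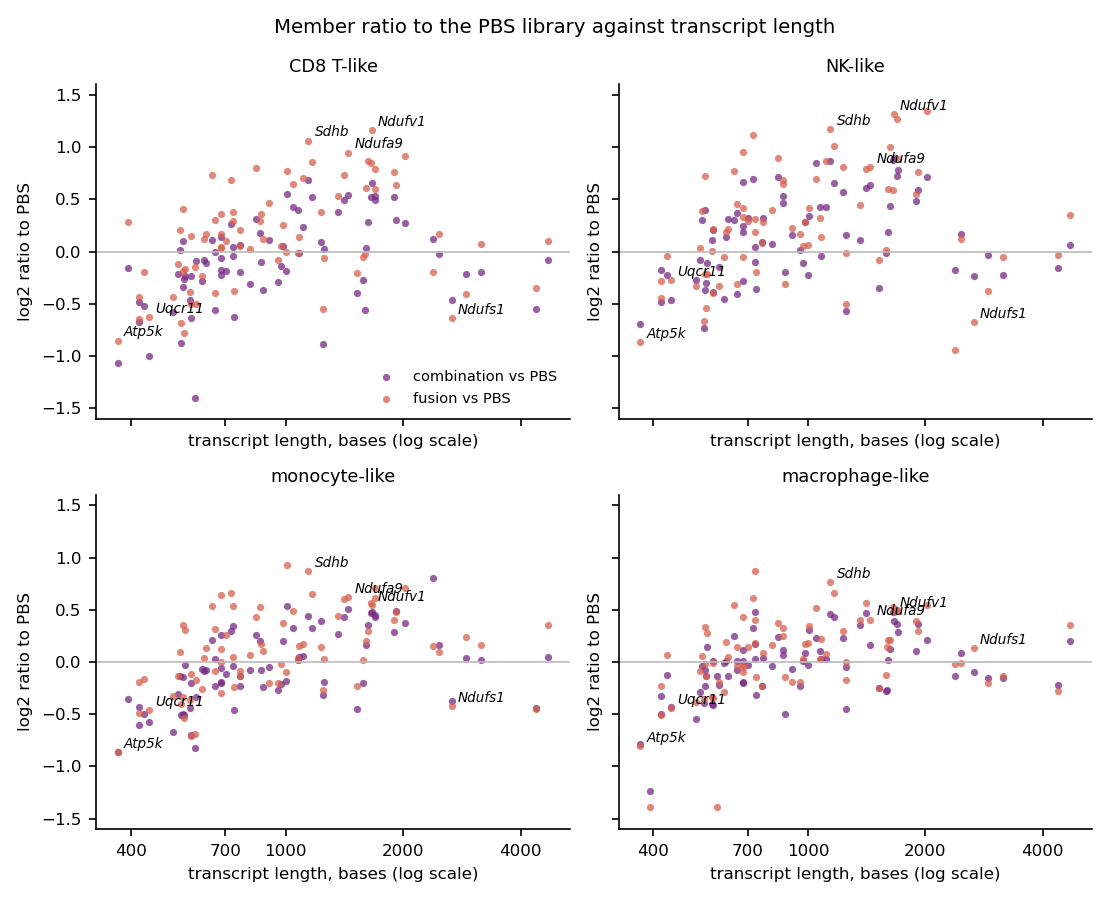
Log2 ratio of each member to the PBS library (vertical axis) against its transcript length in bases (horizontal axis, log scale) in 4 classes, for the combination and the fusion library; members beyond 1.6 are not drawn. Atp5k and Uqcr11, at 371 and 445 bases, lie below 0, and Sdhb, Ndufa9 and Ndufv1, at 1142, 1445 and 1661 bases, above it in all 4 panels, while Ndufs1, at 2661 bases, lies below 0 in the lymphoid and monocyte-like panels.

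Sdhb (4:140961203-140979193, plus strand, mm10) shows the pattern on the long side. It had 136, 220, 197, 218 and 284 CPM in CD8 T-like cells, 83.3, 151, 145, 153 and 189 in NK-like, 144, 198, 180, 195 and 262 in monocyte-like and 165, 232, 209, 227 and 280 in macrophage-like cells. PBS was lowest and fusion highest in every class, with fusion 2.09-fold above PBS in CD8 T-like cells (95% counting interval 1.95 to 2.25). Ndufv1 (19:4007384-4012806, minus strand) was at 41.9, 54.6, 70.6, 66.2 and 93.9 CPM in CD8 T-like cells, a 2.24-fold ratio of fusion to PBS (1.97 to 2.56). Atp5k, the small e subunit of ATP synthase, was at 169, 111, 135, 80.9 and 93.9 CPM, and Uqcr11, a small complex III subunit, at 333, 235, 188, 166 and 215 CPM, with PBS highest for both. Among longer core subunits the direction was not uniform: Ndufs1, an iron-sulfur subunit of complex I, was at 35.8, 26.0, 24.5, 26.0 and 23.1 CPM and Sdha at 101, 86.0, 88.0, 87.2 and 76.7 CPM, both highest in PBS.

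The remaining core subunits in CD8 T-like cells were Uqcrc1 at 92.8, 124, 136, 133 and 167 CPM, Uqcrfs1 at 191, 255, 221, 248 and 276 CPM and Atp5b at 415, 554, 500, 512 and 645 CPM. All 3 were lowest in PBS and highest in fusion. Atp5a1, the other large subunit of the catalytic head of ATP synthase, stayed within 365 to 418 CPM, and Cox4i1 within 1094 to 1328 CPM. The mitochondrially encoded subunits were highest in PBS, at 3.14% of CD8 T-like UMIs against 2.24% to 2.44% in the other 4 libraries. In NK-like cells they were at 3.15% against 2.0% to 2.28%.

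Between treatments in the other classes, NK-like cells had more members higher than lower against PBS in every library: 27 and 1 of 75 for anti-PD1 (11.3% and 10.9% of genes), 19 and 5 for IL15 superagonist (16.6% and 15.3%), 25 and 11 for combination (15.9% and 14.7%) and 30 and 8 for fusion (19.6% and 21%). With anti-PD1 as the reference, the counts were 4 and 11 (14.2% and 12.8%), 1 and 8 (12.5% and 10.7%) and 8 and 6 (11.3% and 13.2%). Neutrophil markers summed to 548 CPM in the PBS NK-like cells, which are 299 cells, and to 2.73 to 67.2 CPM in the other libraries, and their part was not tested. Monocyte-like cells had 7 and 15 of 78 for anti-PD1 (12.6% and 15.6%), 10 and 11 for IL15 superagonist (13% and 16.8%), 15 and 16 for combination (13.4% and 17.6%) and 24 and 10 of 77 for fusion (14.5% and 19.8%). Macrophage-like cells had 11 and 9 of 80 for anti-PD1 (10.9% and 19.6%), 7 and 2 of 79 for IL15 superagonist (10.3% and 14.3%), 8 and 11 for combination (8.61% and 21%) and 22 and 9 for fusion (9.86% and 22.8%). Fewer cells in a library widen the counting interval, and the fusion library held the fewest monocyte-like and macrophage-like cells.

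Cox4i2 and Ndufa4l2 had the largest ratios between libraries in the myeloid classes. In monocyte-like cells Cox4i2 was at 2.28, 13.2, 6.44, 7.29 and 21.6 CPM, that is 5.81-fold higher in anti-PD1 than in PBS (95% counting interval 2.69 to 14.9) and 9.5-fold higher in fusion (3.99 to 26.0), on 7 UMIs in PBS. In macrophage-like cells Cox4i2 was highest in anti-PD1, 2.84-fold above PBS (2.16 to 3.8), and fusion 1.82-fold (1.18 to 2.77). PBS was lowest in both classes. Ndufa4l2 in macrophage-like cells was 31.2-fold higher in anti-PD1 than in PBS (5.35 to 1260), on 50 UMIs against 1. Cox7a1 in macrophage-like cells was highest in PBS at 16.5 CPM, and 0.371-fold in fusion (0.202 to 0.637).

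Fusion against combination sets the protein that joins anti-PD1 and IL15 beside anti-PD1 given with the IL15 superagonist, and does not use the PBS library. The labels name IL15 in the fusion and the superagonist in the title of the combination, so the IL15 component may differ as well as the joining. In CD8 T-like cells 27 members were higher and 3 lower of 78, against 18.9% and 27.5% of all genes, with a median log2 ratio of 0.24 for members and -0.07 for all genes. Complex I had 11 of 35 higher, complex II 1 of 4, complex III 3 of 8, complex IV 4 of 14 and complex V 7 of 15. At a limit of 1.5-fold, 3 were higher and 0 lower, against 11.2% and 16.3% of all genes. Cox5a was at 951 CPM in fusion and 621 CPM in combination, a ratio of 1.53 (1.5 to 1.56), and Ndufa10, a complex I subunit, at 151 and 96.7 CPM, a ratio of 1.56 (1.49 to 1.64). Cox6b2 had the largest ratio at 2.40 (1.76 to 3.36), from 5.27 and 2.19 CPM. Uqcrh (0.698-fold, 0.686 to 0.710), Cox7a2l (0.750-fold, 0.731 to 0.769) and Ndufa6 (0.753-fold, 0.733 to 0.773) were the 3 lower members, and each of them also fell in cycling cells in the state comparison, which used the same cells. Cycling cells made up 3861 of 6213 cells in fusion and 396 of 3045 in combination.

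Within cycling cells alone, fusion against combination gave 6 members higher and 0 lower of 78 (8.61% and 17.6% of genes), with a median of 0.03, and member shares of 2.97% and 2.87%. Within noncycling cells it gave 12 higher and 2 lower (15.1% and 26.5%), with a median of 0.22, and shares of 2.66% and 2.35%. Scaling by TMM gave 31 higher and 0 lower in noncycling cells, against 19.4% and 21.5% of all genes. Noncycling cells were deeper in fusion, with a median of 6131 UMIs against 4661. In noncycling cells Cox5a was at 817 against 543 CPM, a ratio of 1.51 (1.46 to 1.55). In cycling cells Cox5a was at 997 against 813 CPM, a ratio of 1.23 that missed the 25% limit. Uqcrh was lower in fusion in noncycling cells (0.787-fold, 0.768 to 0.806) and at 0.843-fold (0.816 to 0.871) in cycling cells, a difference short of the limit.

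The markers of the granzyme-high gate, Havcr2 among them, summed to 5648 CPM in fusion CD8 T-like cells against 685 CPM in combination. States thus differ in makeup within the noncycling cells too, and their part was not tested. In the other classes, fusion against combination gave 14 and 0 of 75 in NK-like (10% and 13% of genes), 12 and 0 of 78 in monocyte-like (5.67% and 7.22%) and 3 and 0 of 79 in macrophage-like cells (5.02% and 8.89%), with medians of 0.11, 0.16 and 0.12. Ndufa10 was among the 3 members with the largest ratio in NK-like cells at 1.55-fold. The mitochondrially encoded subunits did not follow: 0 of 13 were higher and 1 lower in CD8 T-like cells, with a median of -0.03. Assembly factors gave 9 higher and 6 lower of 43, tricarboxylic acid cycle genes 5 and 1 of 16, and regulators 1 and 6 of 12 in the same cells.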

How the data were processed

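Live CD45+ tumor cells gave 5 libraries, 1 per treatment. The authors deposited raw UMI counts for each gene and barcode, made with Cell Ranger 2.1.1 on mm10, per the submitters' processing notes. The annotation and the handling of reads shared with near-identical gene copies were not stated in those sources, so members with such copies are uncertain. Barcodes under 200 genes or above 10% mitochondrial UMIs were dropped. Classes were gated by fixed markers with UMI limits set once the depth was known. Cells with markers of 2 lineages (192 to 377 per library) were removed as doublets, and doublets within a lineage remain. Libraries held 32832856 to 81565425 UMIs.

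UMIs were summed per class and library and scaled to CPM here. Class and state contrasts used edgeR 4.0.16 (R 4.3.3) with TMM scaling and the library as a block, on genes with at least 20 UMIs, at a false discovery rate of 0.05. The p-values measure the spread between 5 libraries that also differ in treatment. Treatment ratios carry exact conditional 95% intervals for counting error and needed 20 UMIs over both libraries. Other settings tried included DESeq2 1.42.0, total scaling, filters, gates, thinning to 2000 UMIs per cell, a depth window and leaving out each library. Tests were checked on simulated data. Named members are fixed core subunits and paralogs, plus the 3 largest changes each way per comparison, and others are named for the result they illustrate. The members and lists were chosen with earlier results of these data known. One result for a single member is not reported here.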

Additional observations from a re-analysis of the deposited data

How the results depend on the processing

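Treatments could not be paired, because each is 1 library and all carry the number 1. Class and state fits compared groups within libraries, through the library block in every fit. Of 3931 values of single named members under other settings, 3602 kept their direction and side of the threshold, 262 lost the call, 67 gained it and 0 reversed. The cause of each change below was not tested. Member counts below stand without the share of all genes called in the same setting. Where that share is given in the Results, it changed with the setting too. A changed count is therefore not by itself a change particular to members.

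For class contrasts, the count of members higher in CD8 T-like than in NK-like cells went from 51 to 21 with thinning and to 12 in the 5000 to 10000 UMI window, and ran from 39 to 45 with 1 library left out. The count lower, 0 with edgeR's quasi-likelihood test, was 4 with DESeq2, 2 with 2-lineage cells kept, 1 with edgeR's expression filter, 1 with stricter gates, 1 with a 5% mitochondrial limit, and 0 to 1 with 1 library left out. Against macrophage-like cells total scaling gave 20 higher and 22 lower, and leaving out libraries 7 to 10 and 30 to 41. Against monocyte-like cells total scaling gave 42 and 8, DESeq2 35 lower, 2-lineage cells kept 11 higher, thinning 8 higher, the depth window 11 higher, and leaving out libraries 8 to 14 and 15 to 26. For macrophage-like against monocyte-like cells total scaling gave 43 higher, the depth window 15 higher, thinning 4 lower, and leaving out libraries 16 to 24 and 3 to 7. For cycling cells the depth window gave 11 higher and leaving out libraries 46 to 50 higher and 4 lower. For granzyme-high cells thinning gave 17 higher, the depth window 8 higher and 1 lower, and leaving out libraries 20 to 36 and 2 to 4.

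For treatments in CD8 T-like cells, a 1.5-fold limit gave 1 higher and 1 lower for anti-PD1, 1 and 5 for IL15 superagonist, 2 and 8 for combination, 6 lower for fusion against PBS, and 3 and 0 for fusion against combination. With anti-PD1 in place of PBS, 2, 1 and 11 were higher for IL15 superagonist, combination and fusion, and 4 lower for fusion. A total without mitochondrial, ribosomal and receptor genes gave 7 higher for IL15 superagonist. TMM gave 9 lower for fusion against PBS and turned the median of combination against PBS to 0.010. For fusion against combination in noncycling cells, a 1.5-fold limit gave 4 and 0, TMM 31 and 0, and thinning 1 lower; in cycling cells they gave 1, 10 higher and 1 lower, no mitochondrial limit 1 lower and the depth window 2 lower. Medians also reversed in NK-like cells for IL15 superagonist (-0.12 with the reduced total, -0.092 against anti-PD1) and combination (-0.11 and -0.076), in monocyte-like cells for combination against anti-PD1 (0.013) and in macrophage-like cells for anti-PD1 under TMM (0.029).

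Thinning lowered the member share to 2.62%, 2.63%, 2.26%, 2.34% and 2.79% in CD8 T-like cells, to 2.32%, 2.24% and 2.35% in NK-like cells of anti-PD1, combination and fusion, to 2.17%, 2.16% and 2.37% in monocyte-like cells of the same libraries, and to 2.50%, 2.46%, 2.55%, 2.50% and 2.72% in macrophage-like cells. Without a mitochondrial limit the fusion CD8 T-like share was 2.88%.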
